A study of Mus musculus with 6 samples.

Results

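Mcam and 9 further genes for adhesion molecules of the immunoglobulin superfamily were followed in mouse hepatocytes given Zac1 or EGFP. The 10 genes are Mcam, Alcam, Bcam, L1cam, Ncam1, F11r, Nectin1, Nectin2, Nectin3 and Cadm1. They were selected by symbol from the 49585 gene IDs of the count table, with the Zac1 against EGFP results of these libraries already known, so their differences in this contrast are descriptions with no test. Each symbol matched 1 ID; 9 of the 10 genes averaged 10 or more counts per library and entered the fit, and L1cam did not.

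The cells were AML12, an immortalised line of mouse hepatocytes established from a mouse that carried a transforming growth factor alpha transgene, and all libraries share this line. The Zac1 group (libraries 4, 5 and 6) received a construct with the open reading frame of Zac1, the zinc finger transcription factor encoded by Plagl1, and the EGFP group (libraries 1, 2 and 3) one with that of a fluorescent protein. PolyA RNA was sequenced 24 h after transfection. The labels do not state whether the 3 libraries per group are separate cultures. A p-value therefore reflects the spread among these 6 libraries alone, and that spread may be technical.

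Adhesion molecules of the immunoglobulin superfamily are membrane proteins that bind the same molecule, a relative or an integrin on a neighbouring cell, or laminin in the matrix, through stacked immunoglobulin domains outside the cell. Mcam, also called melanoma cell adhesion molecule, is known from endothelial cells, pericytes, smooth muscle and melanoma, and in normal liver from the vessel wall rather than from hepatocytes. Nectins and F11r belong to the cell junctions of epithelia, where they are tied to the actin skeleton through the scaffold proteins afadin and ZO.

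Mcam, Alcam and Bcam share one arrangement of immunoglobulin domains, and their promoters are shown because these closest relatives had unlike differences between the groups. The windows run from 250 bases before to 50 after the RefSeq start on GRCm38.p6, at chr9:44134408-44134707 (plus strand) for Mcam, chr16:52453032-52453331 (minus strand) for Alcam and chr7:19770483-19770782 (minus strand) for Bcam. Capitals mark GGGGCC, the first 6 letters of GGGGCCCC, a sequence described as bound by Zac1.
Mcam: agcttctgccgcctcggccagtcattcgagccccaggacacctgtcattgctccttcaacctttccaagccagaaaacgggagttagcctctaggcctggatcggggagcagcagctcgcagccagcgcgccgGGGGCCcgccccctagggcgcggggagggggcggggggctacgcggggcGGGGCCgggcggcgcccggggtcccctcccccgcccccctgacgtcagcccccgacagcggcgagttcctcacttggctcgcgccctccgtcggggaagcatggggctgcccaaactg
Alcam: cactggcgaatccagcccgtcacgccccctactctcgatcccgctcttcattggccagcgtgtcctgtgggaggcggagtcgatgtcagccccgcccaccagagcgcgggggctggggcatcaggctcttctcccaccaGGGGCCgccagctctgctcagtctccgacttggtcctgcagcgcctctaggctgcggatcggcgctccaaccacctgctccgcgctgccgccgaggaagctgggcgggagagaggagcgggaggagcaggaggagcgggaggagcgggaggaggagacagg
Bcam: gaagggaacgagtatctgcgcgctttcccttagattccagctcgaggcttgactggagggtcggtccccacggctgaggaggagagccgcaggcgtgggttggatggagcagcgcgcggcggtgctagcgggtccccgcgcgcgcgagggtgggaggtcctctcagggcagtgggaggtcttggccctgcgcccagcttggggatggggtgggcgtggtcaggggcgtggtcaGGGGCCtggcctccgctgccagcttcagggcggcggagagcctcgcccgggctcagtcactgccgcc

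The table of promoters held 7 of the 10 genes. The full GGGGCCCC was in 0 of the 7, and in 1.08% of all 32851 promoters in that table. GGGGCC, searched on both strands and with any overlap counted, was in 5 of the 7 and in 25% of all promoters. Mcam and Nectin2 held it at 2 places; 6.86% of all promoters held it at 2 or more. Alcam, Bcam and L1cam held it at 1 place, and F11r and Nectin3 at none. The Mcam window was 72.7% G and C with 29 CpG dinucleotides, the Alcam window 69.7% and the Bcam window 71.0%, against a median of 52.7% over all promoters. These matches are letters in a window and say nothing of binding.

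The libraries held 16104498, 17003713 and 18302538 counts in the Zac1 group, and 15145092, 14885966 and 14801240 counts in the EGFP group. Plagl1 had 106033, 135108 and 148382 counts in the Zac1 libraries, against 39, 79 and 67 counts in the EGFP libraries, so each library matched its label; reads of the construct and of the cells' own gene are not separated. Of 12130 genes tested, 459 (3.78%) passed an adjusted p of 0.05 in edgeR's quasi-likelihood test, 378 higher in Zac1 cells (3.12%) and 81 lower. The libraries of the groups did not overlap, in counts scaled by library size (CPM), for 20.6% of tested genes. The line was checked against hepatocyte markers, whose summed level was 5056 to 5479 CPM in Zac1 libraries and 4954 to 5282 CPM in EGFP libraries. Hnf4a, a hepatocyte transcription factor, lay between 202 and 210 CPM in Zac1 libraries and between 195 and 213 CPM in EGFP libraries, while Apoa2 was at 0 and Cps1 and Asgr1 had at most 6 reads in any library. Zac1 library 4 and EGFP library 1 were each the lowest of their group for Bcam, Nectin2 and F11r and the highest for Alcam and Cadm1, so results are also given without both where they move. The longest transcripts of the first set were 60.9%, 58.0% and 50.1% G and C, and those of Alcam and Cadm1 44.0% and 43.9%; the part of base composition in these deviations was not tested.

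Mcam had the largest difference of the 9 tested members. Its gene, ENSMUSG00000032135, lies on chromosome 9 from 44134469 to 44142727 on the plus strand (GENCODE M21, GRCm38). Mcam had 547, 632 and 668 counts in Zac1 libraries, against 17, 20 and 7 counts in EGFP libraries. The groups lay far apart, with every Zac1 library above every EGFP library by more than the spread within either group. In CPM, Mcam was at 34.1, 37.1 and 36.3 in Zac1 libraries and at 1.13, 1.34 and 0.473 in EGFP libraries. The means were 35.8 ± 1.59 CPM in Zac1 cells and 0.983 ± 0.454 CPM in EGFP cells (SD, n = 3 each), a log2 difference of 5.18 (SE 0.17), or 36.2-fold. That difference ranked 14th from the top among the 12130 tested genes. The summed counts, 1847 in Zac1 libraries and 44 in EGFP libraries, give a ratio of 36.5 after scaling, with an exact 95% interval of 27.1 to 50.4 that covers counting error only.

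The spread of Mcam differed between the groups as well. The SD was 4.43% of the mean in Zac1 libraries and 46.2% in EGFP libraries, where the values rest on 7 to 20 reads. The antisense gene Gm10687 overlaps Mcam by 17 bases; it had 11, 10 and 5 reads in Zac1 libraries and 2, 0 and 1 reads in EGFP libraries. The labels do not say if reads were counted by strand, and the reads of Gm10687 are few beside those of Mcam. Over the 16 alternative settings the log2 difference of Mcam lay between 4.84 and 5.46, and without Zac1 library 4 and EGFP library 1 it was 5.33. In bulk RNA, a gene carried by more cells and a gene with more RNA per cell cannot be told apart, here or for the genes that follow.

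**Figure D1:**
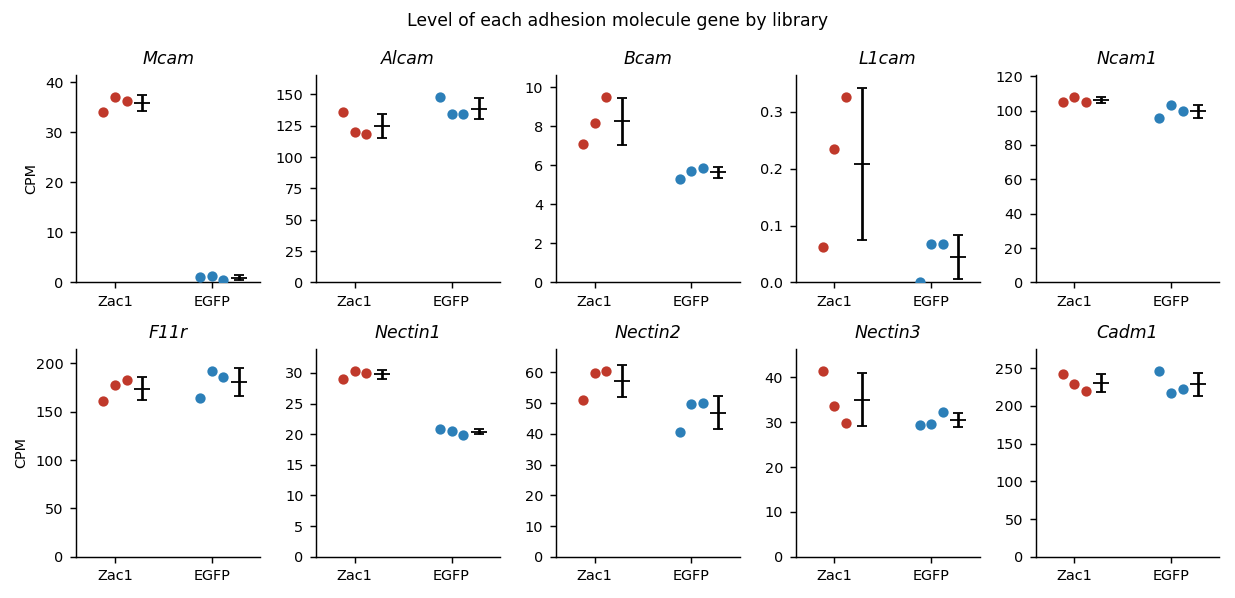
Level of each of the 10 adhesion molecule genes in CPM on linear axes that start at 0, 1 panel per gene. Points are libraries (Zac1 4, 5 and 6 in red on the left, EGFP 1, 2 and 3 in blue on the right) and the bars beside them are mean ± SD; the Zac1 libraries of Mcam sit between 34.1 and 37.1 CPM and its EGFP libraries between 0.473 and 1.34 CPM, while Cadm1 and F11r overlap.

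Bcam and Alcam, the closest relatives of Mcam, stood apart from it. Bcam, the Lutheran blood group protein and a receptor for laminin alpha-5, was higher by a small amount, and Alcam, the ligand of Cd6 on lymphocytes, had a lower mean. Bcam (ENSMUSG00000002980, chromosome 7, 19756131 to 19771016, minus strand) was at 7.1, 8.17 and 9.52 CPM in Zac1 libraries and at 5.33, 5.71 and 5.88 CPM in EGFP libraries. The groups of Bcam did not overlap. Its log2 difference was 0.56 (SE 0.14), or 1.47-fold, from means of 8.26 ± 1.21 CPM in Zac1 cells and 5.64 ± 0.281 CPM in EGFP cells. Alcam, on chromosome 16, was at 136, 120 and 118 CPM in Zac1 libraries and at 148, 134 and 134 CPM in EGFP libraries. Zac1 library 4 lay within the range of the EGFP libraries, so the groups of Alcam overlapped, and its log2 difference was -0.15 (SE 0.07).

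Ncam1 and L1cam, adhesion molecules best known from neurons, differed in level: Ncam1 was 5th of the 10 by RPKM in both groups, and L1cam had few reads in either. Ncam1 was at 105, 108 and 105 CPM in Zac1 libraries and at 95.4, 103 and 100 CPM in EGFP libraries. The groups of Ncam1 did not overlap, but its log2 difference of 0.09 (SE 0.05) was small. L1cam had 1, 4 and 6 reads in Zac1 libraries and 0, 1 and 1 reads in EGFP libraries, close to the floor of the assay. The ratio of its summed counts, 11 in Zac1 libraries and 2 in EGFP libraries, was 4.78 with an exact 95% interval of 1.04 to 44.4, for counting error only. L1cam overlaps Arhgap4 on the same strand by 4664 bases, and how shared reads were assigned is not stated.

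The nectins bind each other across adherens junctions and hold afadin inside the cell. Nectin1 had the clearest difference among them, Nectin2 a smaller one, and Nectin3 overlapped between the groups. Nectin1 (ENSMUSG00000032012, chromosome 9, 43743984 to 43807461, plus strand) was at 29, 30.3 and 30 CPM in Zac1 libraries and at 20.8, 20.6 and 19.9 CPM in EGFP libraries. Every Zac1 library of Nectin1 lay above every EGFP library, with SDs of 2.32% of the mean in Zac1 cells and 2.52% in EGFP cells. The log2 difference of Nectin1 was 0.54 (SE 0.08), or 1.46-fold. Nectin1 also overlaps Gm30015 on the other strand, which had 10, 5 and 11 reads in Zac1 libraries and 2, 3 and 4 reads in EGFP libraries.

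Nectin2 (ENSMUSG00000062300, chromosome 7, 19716644 to 19750483, minus strand) was at 51.1, 59.8 and 60.4 CPM in Zac1 libraries and at 40.6, 49.8 and 50 CPM in EGFP libraries. The groups of Nectin2 did not overlap, though the lowest Zac1 library was only just above the highest EGFP library; the log2 difference was 0.29 (SE 0.09). Nectin3, the partner that binds Nectin1 most strongly, was at 41.4, 33.7 and 29.8 CPM in Zac1 libraries and at 29.4, 29.6 and 32.2 CPM in EGFP libraries. Its log2 difference of 0.20 (SE 0.10) rested on Zac1 library 4: it was 0.06 without that library and 0.04 without Zac1 library 4 and EGFP library 1. Cadm1, a nectin-like molecule that binds itself and other Cadm proteins, was at 242, 229 and 219 CPM in Zac1 libraries and at 246, 217 and 222 CPM in EGFP libraries. Its groups overlapped, with a log2 difference of 0.01 (SE 0.06).

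F11r, the junctional adhesion molecule A of tight junctions, was at 161, 178 and 183 CPM in Zac1 libraries and at 164, 192 and 186 CPM in EGFP libraries. The groups of F11r overlapped, with a log2 difference of -0.06 (SE 0.07).

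Of the 9 members tested, 3 were past the threshold and higher in Zac1 cells (Mcam, Nectin1 and Bcam), where 3.12% of all tested genes were, and 0 were lower. Bcam was past it narrowly and not under 10 of the 16 alternative settings, among them the fit with offsets for G and C content. With these offsets the log2 differences were 0.45 for Bcam, 0.46 for Nectin1 and 0.21 for Nectin2. They were -0.11 for Alcam, 0.23 for Nectin3 and 0.06 for Cadm1. The part of base composition in these differences was not tested further. The libraries of the groups did not overlap for 5 members (Mcam, Nectin1, Bcam, Nectin2 and Ncam1), beside the 20.6% of all tested genes. Of the 9, 7 had a log2 difference above 0 and 2 below it; the median was 0.20, and over all tested genes it was -0.00, with 6009 above 0 and 6121 below. Since the genes were chosen with these results known, the counts describe the list and carry no support.

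**Figure D2:**
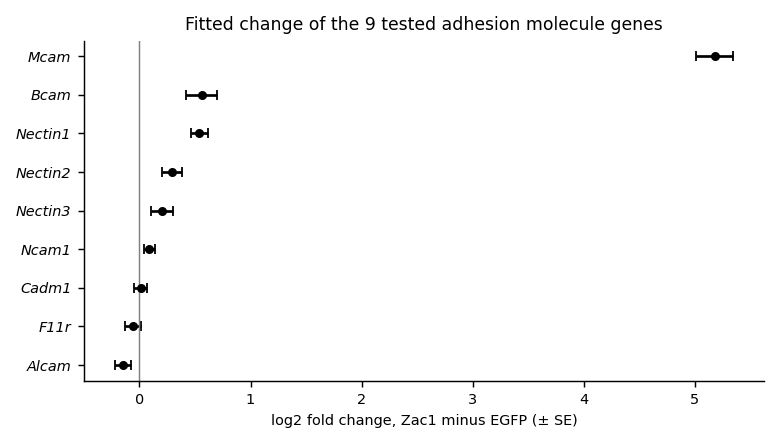
Log2 difference (Zac1 minus EGFP) of the 9 tested members, with bars of ±1 SE from the edgeR fit; 0 marks equal levels. Mcam stands at 5.18, Bcam, Nectin1 and Nectin2 lie between 0.29 and 0.56, and Alcam is lowest at -0.15.

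Per kilobase of exon, the members covered a wide range of levels, and Mcam moved within it. Levels are CPM divided by exon length in kilobases (RPKM) here. F11r was highest in both groups, at 65.4 ± 4.4 RPKM in Zac1 cells and 67.9 ± 5.55 RPKM in EGFP cells, and L1cam was lowest. Mcam was at 10.7 ± 0.474 RPKM in Zac1 cells, 6th of the 10 below Ncam1, and at 0.293 ± 0.136 RPKM in EGFP cells, 9th and above only L1cam. In Zac1 cells the order was F11r, Cadm1, Alcam, Nectin2, Ncam1, Mcam, Nectin1, Nectin3, Bcam and L1cam. The libraries of Alcam and Nectin2 overlapped in that order, as did those of Nectin3 and Bcam. In EGFP cells the order was F11r, Cadm1, Alcam, Nectin2, Ncam1, Nectin1, Nectin3, Bcam, Mcam and L1cam, and Cadm1 overlapped with Alcam and Nectin2 with Ncam1.

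Mcam made up 6.77% to 7.06% of the members' summed RPKM in Zac1 libraries and 0.0981% to 0.274% in EGFP libraries. The sum itself was 150 to 157 RPKM in Zac1 libraries and 137 to 146 RPKM in EGFP libraries. F11r alone made up 40.2% to 43.7% of the sum in Zac1 libraries and 45.1% to 49.4% in EGFP libraries. The member with the highest level was not the one with the largest difference.

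**Figure D3:**
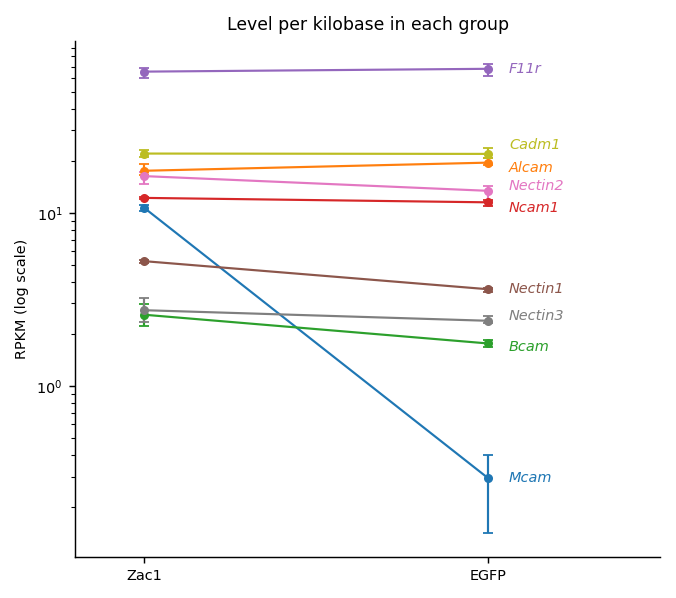
Level of the 9 tested members in RPKM on a log axis, Zac1 on the left and EGFP on the right. Points are means over 3 libraries, joined by gene, and bars run from the lowest to the highest library; the line of Mcam, at 10.7 RPKM in Zac1 cells and 0.293 RPKM in EGFP cells, crosses those of Nectin1, Nectin3 and Bcam.

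Of the 10 genes, 4 lie on mouse chromosome 9 (Nectin1, Mcam, Cadm1 and Ncam1), and their differences were unlike. Nectin1 ends 327 kb before Mcam starts, and Cadm1 starts 3.39 Mb after Mcam ends. Bcam and Nectin2 are neighbours on chromosome 7, 5.65 kb apart on the same strand, and both had higher means in Zac1 cells. Tomm40, Apoe and Clptm1, beyond Nectin2, and Bcl3, beyond Bcam, lie within 100 kb of Bcam, with log2 differences between -0.07 and 0.11.

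Around Mcam, the adjoining gene Cbl had a log2 difference near 0, and Usp2, farther upstream, rose. Within 100 kb on each side are 16 other genes, of which 7 had no reads, 6 had reads below the minimum and 3 were tested; window and genes were chosen after the values were seen. Cbl, an E3 ubiquitin ligase that ends 249 bases from Mcam on the other strand, averaged 140 ± 7.06 CPM in Zac1 cells and 136 ± 2.37 CPM in EGFP cells (SD, n = 3 each). The log2 difference of Cbl was 0.05 (SE 0.05, edgeR adjusted p = 0.742). Gm26737, nearer to Mcam than Usp2, averaged 2.34 ± 0.565 CPM in Zac1 cells and 1.52 ± 0.688 CPM in EGFP cells, with a log2 difference of 0.62 (SE 0.31, edgeR adjusted p = 0.352). Usp2, a ubiquitin-specific protease 38842 bases upstream of Mcam, had 40, 36 and 47 reads in Zac1 libraries and 13, 1 and 7 reads in EGFP libraries. Usp2 rose, with a log2 difference of 2.33 (SE 0.42, edgeR adjusted p = 0.00492) that passed in each of the alternatives that tested it, at adjusted p values up to 0.044. The log2 difference of Usp2 was 3.12 without EGFP library 1 and 1.82 without EGFP library 2. Mfrp, between both, had 2, 2 and 7 reads in Zac1 libraries and 0 in every EGFP library.

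**Figure D4:**
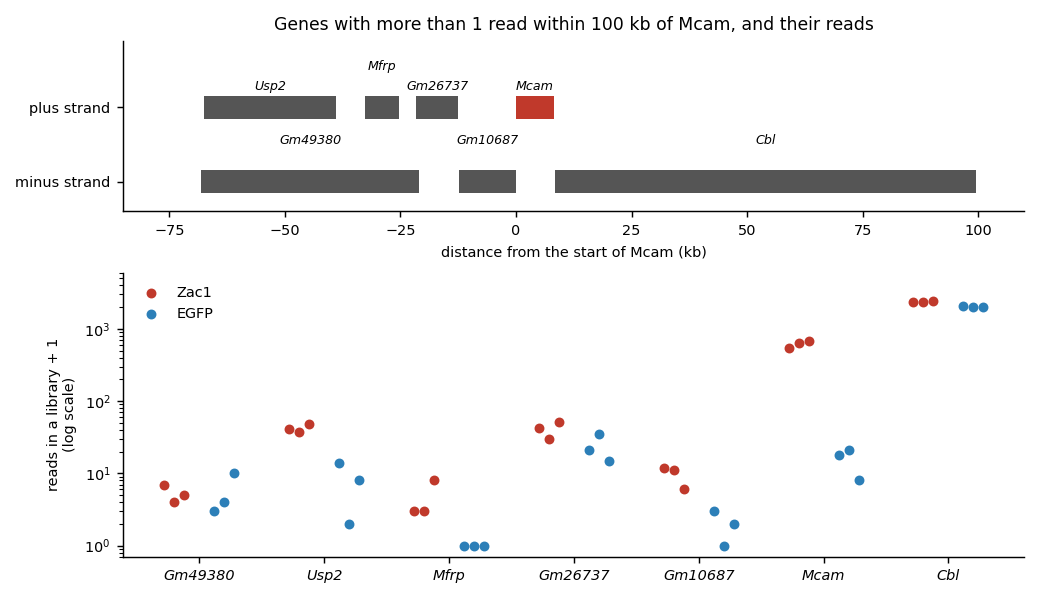
Genes with more than 1 read within 100 kb of Mcam. The upper panel places each gene by distance from the start of Mcam in kb and by strand; the lower panel gives the reads of each gene in each library, plus 1, on a log axis, with Zac1 in red and EGFP in blue. Mcam and Usp2 have higher Zac1 points, as do Gm10687 and Mfrp on few reads, and the points of Cbl lie together.

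Among 76 other immunoglobulin-type adhesion genes, Icam1 and Cadm4 rose and the rest did not pass the test. Of these genes, 75 were in the table, 52 were below the minimum (10 of them at 0 in every library) and 23 were tested. The 2 that passed compare with 3.78% of all tested genes, and 0 passed in the lower direction. This list and the lists of related genes that follow were chosen with earlier results of these data known, so their p values and counts are descriptive. Icam1, the ligand through which leukocytes hold on to endothelium and hepatocytes, had 945, 1161 and 1310 counts in Zac1 libraries and 424, 506 and 451 counts in EGFP libraries. Icam1 averaged 66.1 ± 6.46 CPM in Zac1 cells and 30.9 ± 2.89 CPM in EGFP cells (SD, n = 3 each), a log2 difference of 1.10 (SE 0.09, edgeR adjusted p = 7.48e-06). Cadm4, a nectin-like relative of Cadm1, had 94, 105 and 132 counts in Zac1 libraries and 45, 47 and 38 counts in EGFP libraries. Cadm4 averaged 6.40 ± 0.693 CPM in Zac1 cells and 2.91 ± 0.305 CPM in EGFP cells, a log2 difference of 1.14 (SE 0.17, edgeR adjusted p = 0.00116).

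Both genes were separated between the groups in every library, while Cadm1 itself was at nearly equal means. Over the 23, 13 log2 differences were above 0 and 10 below, from -0.25 to 1.14, with a median of 0.01. The libraries of 10 of the 23 did not overlap between the groups, beside 20.6% of all tested genes. Nfasc, neurofascin of the L1 family, was below the minimum but had 0, 2 and 1 reads in Zac1 libraries and 9, 6 and 8 reads in EGFP libraries, a ratio of summed counts of 0.113 (exact 95% interval 0.0218 to 0.375, counting error only). It passed with no filter on low counts. Esam, an endothelial adhesion molecule, averaged 3.05 ± 0.337 CPM in Zac1 cells and 1.68 ± 0.614 CPM in EGFP cells, with a log2 difference of 0.86 (SE 0.26, edgeR adjusted p = 0.0895). Pvr, the poliovirus receptor of the nectin family, had a log2 difference of -0.14 (SE 0.05, edgeR adjusted p = 0.21), and Vcam1, a ligand of leukocyte integrins, one of -0.13 (SE 0.07, edgeR adjusted p = 0.434). Esam passed in edgeR without EGFP library 2 (adjusted p = 0.0332), without Zac1 library 4 (0.0479) and with no filter on low counts (0.0116). Without both EGFP library 1 and Zac1 library 4, Esam (0.0244), Vcam1 (lower, 0.00376) and Tigit passed. Tigit, with a log2 difference of 0.36 over all libraries (SE 0.11, edgeR adjusted p = 0.0848), also passed without Zac1 library 4 alone. Esam, Pvr, Vcam1, Tigit and Nfasc were chosen after their values were seen.

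Of 12 described ligands and partners of Mcam, 7 were tested and Ntn1 rose, where 3.78% of all tested genes passed in either direction. The list was likewise chosen with earlier results of these data known. Ntn1, the secreted guidance protein netrin-1, had 159, 127 and 153 counts in Zac1 libraries and 29, 38 and 39 counts in EGFP libraries. Ntn1 averaged 8.56 ± 1.24 CPM in Zac1 cells and 2.37 ± 0.384 CPM in EGFP cells (SD, n = 3 each), a log2 difference of 1.85 (SE 0.18, edgeR adjusted p = 3.91e-05). The laminin chains had smaller differences, with log2 differences of -0.29 (SE 0.20) for Lama4, 0.27 (SE 0.11) for Lamb1 and -0.02 (SE 0.05) for Lamc1. The galectins Lgals1 and Lgals3 had values of 0.20 (SE 0.07) and 0.09 (SE 0.05), and the growth factor Vegfc one of 0.34 (SE 0.16); none of these 6 passed. The receptors Kdr and Pdgfrb and the ligands Wnt5a, S100a8 and S100a9 were below the minimum, S100a9 at 0 in every library. The median over the 7 was 0.20, with 5 above 0 and 2 below.

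Of 20 ligands, partners and sheddases of the other members, 11 were tested and 0 passed in edgeR, DESeq2 or limma, with 2 at an unadjusted p under 0.05 in edgeR. With 3.78% of all tested genes called, 0 of 11 is close to the background. Itgb2, the beta chain of the leukocyte integrin that binds Icam1 and F11r, had 20, 11 and 19 reads in Zac1 libraries and 7, 5 and 3 reads in EGFP libraries. Its log2 difference was 1.51 (SE 0.44, edgeR adjusted p = 0.0838). Itgal, the alpha chain that pairs with Itgb2, was below the minimum, with 6, 11 and 15 reads in Zac1 libraries and 2, 0 and 0 reads in EGFP libraries, a ratio of 13.9 (exact 95% interval 3.55 to 120, counting error only). Timp3, an inhibitor of sheddases and also below the minimum, had 12, 13 and 8 reads in Zac1 libraries and 1, 3 and 3 reads in EGFP libraries. Itgal and Timp3 were chosen after their values were seen. Adam10, a protease that sheds several of the members, had a log2 difference of -0.14 (SE 0.07, edgeR adjusted p = 0.309). Lama5, the laminin chain that Bcam binds, averaged 295 ± 6.51 CPM in Zac1 cells and 296 ± 7.13 CPM in EGFP cells, and Cd6 was at 0 in every library.

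Of 24 cytoplasmic scaffolds that hold the tails of these molecules, 21 were tested and 0 passed in edgeR, DESeq2 or limma, with 0 at an unadjusted p under 0.05 in edgeR. Beside the 3.78% of all tested genes called, 0 of 21 is also close to the background. Their log2 differences lay between -0.13 and 0.16, with a median of 0.00, 11 above 0 and 10 below. Afdn, the afadin that binds nectins, averaged 311 ± 7.3 CPM in Zac1 cells and 320 ± 15.1 CPM in EGFP cells. The smallest p values belonged to Prkci, an atypical protein kinase C of the polarity complex, at -0.12 (SE 0.06, edgeR adjusted p = 0.321), and to Ank3, an ankyrin that binds L1cam, at -0.11 (SE 0.05, edgeR adjusted p = 0.327).

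**Figure D5:**
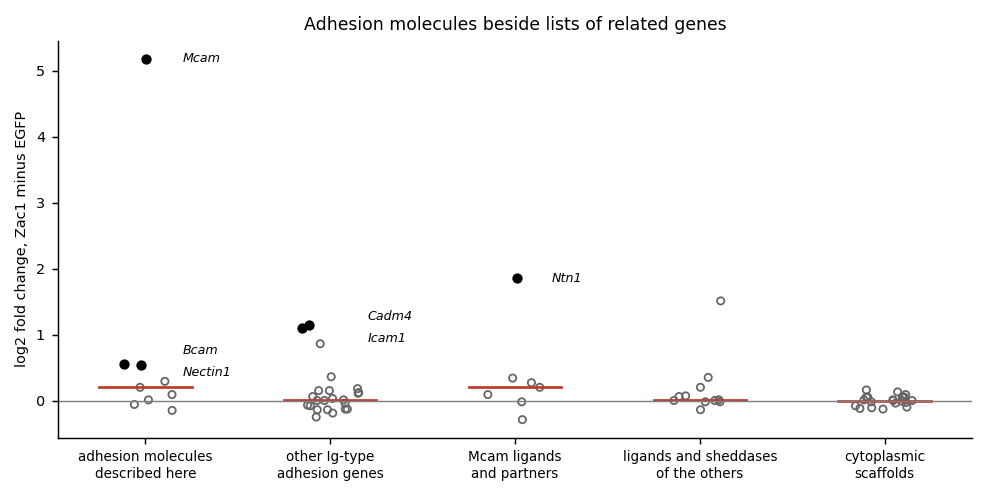
Log2 difference (Zac1 minus EGFP) of every tested gene among the members and the 4 lists of related genes, 1 point per gene, filled where it passed the threshold, with a red line at each list's median and 0 as equal levels. Mcam stands far above the rest; Icam1 and Cadm4 lie above 1 among the other adhesion genes, Ntn1 at 1.85 among the Mcam partners, and the scaffolds between -0.13 and 0.16.

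Most markers of the other cell types that carry Mcam were at or near 0. The summed level of 12 endothelial markers was 3.74 to 4.57 CPM in Zac1 libraries and 2.09 to 2.96 CPM in EGFP libraries, with Tie1, Emcn, Cldn5, Erg and Lyve1 at 0 and Esam as the one gene tested. Esam made up most of that sum in every library. Pecam1, a defining endothelial gene, had 9, 13 and 16 reads in Zac1 libraries and 7, 7 and 3 reads in EGFP libraries. Vwf also had more reads in Zac1 libraries (4, 2 and 6, against 0, 1 and 1). Stab2 had fewer (0, 2 and 0, against 3, 1 and 1), Kdr and Tek overlapped between the groups, and Cdh5 had 1 read, in EGFP library 1. The endothelial sum was higher in every Zac1 library, and its part in the result of Mcam was not tested. For 11 markers of pericytes, stellate cells and smooth muscle the sum was 11.1 to 12.7 CPM in Zac1 libraries and 8.79 to 12.9 CPM in EGFP libraries, most of it from Notch3, with Lrat and Abcc9 at 0. Des had 5, 7 and 1 reads in Zac1 libraries against 0, 1 and 1 in EGFP libraries. Pdgfrb had 0, 2 and 4 against 0, 0 and 0. Tagln had 5, 14 and 6 against 8, 8 and 15, and Myh11 had 0, 4 and 1 against 1, 2 and 2. Cspg4, Rgs5, Kcnj8 and Acta2 had at most 3 reads in any library. The part of these cells in the result of Mcam was not tested. Leukocyte markers summed to 2.3 to 3.05 CPM in Zac1 libraries and 2.3 to 2.69 CPM in EGFP libraries, but single markers within that sum went opposite ways. Csf1r had 7, 4 and 19 reads in Zac1 libraries and 0 in every EGFP library. Cd68 was at 1.31, 0.881 and 1.09 CPM in Zac1 libraries and at 1.2, 1.75 and 1.62 CPM in EGFP libraries. Markers of neurons and Schwann cells, relevant to Ncam1 and L1cam, summed to 1.82 to 2.5 CPM in Zac1 libraries and 2.16 to 2.35 CPM in EGFP libraries.

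The genes whose level over the 6 libraries was most like that of Mcam were sought among 9905 genes averaging 50 or more counts, by Pearson's r of log2 CPM. They were Erbb3 (r = 0.9993), Ahdc1 (r = 0.9965), Cxcl1 (r = 0.9939), Egln3 (r = 0.9939) and Plxna2 (r = 0.9905), and Plagl1 had 0.9837. Since the libraries fall into 2 groups, r here is largely the difference between groups and the evenness within each, and no p is given. Erbb3, a receptor of neuregulins, had 85, 109 and 111 counts in Zac1 libraries and 1, 2 and 0 counts in EGFP libraries. Mcam was also low in EGFP libraries, but with more counts there (17, 20 and 7) than Erbb3. Plxna2, a semaphorin receptor, averaged 149 ± 0.154 CPM in Zac1 cells and 127 ± 2.85 CPM in EGFP cells, a log2 difference of 0.23, so likeness of pattern did not mean likeness of size. With each library left out in turn, a check chosen after seeing the data, Erbb3 was the one gene of the 5 that stayed among the top 5. Erbb3 reached the minimum of 50 counts only through its Zac1 libraries. Each such set keeps the split into 2 groups, so the check carries no support for a link to Mcam.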

How the data were processed

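PolyA RNA of 6 libraries was measured. The submitters' processing notes name FastQC, the aligner STAR, the counter HTSeq and DESeq2 without versions. Genome build and strand setting: not given in the sources used here. The authors deposited read counts per gene; the table is called normalized, but its whole numbers behave as unscaled counts (0 of the whole numbers from 1 to 40 absent, median-of-ratios size factors 0.928 to 1.162). Symbols, coordinates and exon lengths are those of GENCODE M21 (GRCm38) by gene ID (49326 of 49585 matched), and promoters those of RefSeq on GRCm38.p6.

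Genes averaging 10 or more counts were fitted with TMM scaling in edgeR 4.0.16 (R 4.3.3; glmQLFit and glmQLFTest, two-sided, prior count 0.125, Benjamini-Hochberg over 12130 genes, threshold 0.05); the SE is the log2 difference over the square root of F. CPM and RPKM use TMM-scaled library sizes; values are mean ± SD, n = 3. DESeq2 1.42.0 and limma 3.58.1 were alternatives, with other scalings, filters, prior counts, GC offsets and left-out libraries. The steps were tested on simulated data. Named genes were every member, Plagl1, up to 4 called genes per list (or the 2 with the smallest p), and the 5 most like Mcam; other genes were chosen after their values were seen. Members and lists were chosen with earlier results of these data known. Replicate numbers differ between the groups.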

Additional observations from a re-analysis of the deposited data

How the results depend on the processing

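Each of Mcam, Nectin1, Icam1, Cadm4 and Ntn1 stayed past the threshold and higher in Zac1 cells under all 16 alternatives. For the members, here and below, such calls are descriptions and carry no support, since the genes were chosen with these results known. The highest adjusted p over them was 0.000649 for Icam1, 0.015 for Cadm4 and 0.0011 for Ntn1. The log2 difference of Bcam lay between 0.44 and 0.65, that of Nectin1 between 0.46 (GC offsets) and 0.58, that of Nectin2 between 0.20 and 0.36, that of Nectin3 between 0.04 and 0.30 and that of Alcam between -0.22 and -0.10; that of Cadm1, at -0.03 to 0.07, took both signs. Of all genes, 459 were called, 979 with no filter, 241 among genes averaging 50 or more counts, and 206 to 963 with 1 library left out (963 without Zac1 4, 206 without Zac1 5, 221 without Zac1 6, 236 without EGFP 3). Without both EGFP 1 and Zac1 4, 1461 were called; the cause was not tested. Of the members, 2 to 5 were called with 1 library left out and 5 without both, with Alcam (lower) and Nectin2 added when Zac1 4 was left out. DESeq2 and limma called 2 members, Mcam and Nectin1. Of the other adhesion genes, 2 to 4 were called with 1 library left out, 4 with no filter and 5 without both. Of the Mcam partners, the counts were 1 to 2, then 2 and 2, with Lgals1 (0.28, adjusted p = 0.00853) added without Zac1 4; Lamc1 lay between -0.06 and 0.02 with 1 library left out and at 0.03 without both. Of the ligands, partners and sheddases of the other members, they were 0 to 1, then 3 and 1: Itgal, Timp3 and Itgb2 (adjusted p = 0.0389) passed with no filter, and Adam10 passed without Zac1 4 (0.0388) and without both (0.0115). Scaffolds had 3 calls without both. No paired analysis was possible because the groups share no replicate number. Differences in L1cam, Nfasc, Itgal, Itgb2 and Timp3 rest on few reads and were limited by depth.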
